A study of Mus musculus with 4 samples.

Results

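Secretoglobins and other secreted defence proteins of the nasal mucosa were examined as a list of 9 genes, *Scgb1a1*, *Scgb1c1*, *Scgb3a1*, *Pigr*, *Ltf*, *Dmbt1*, *Lyz1*, *Reg3g*, and *Wfdc2*, of 24421 genes with deposited values. All 9 symbols were found, and 8 of them were above 0 in at least 1 library. The values are TPM (transcript abundances scaled to sum to 1000000 per library) from RNA-seq of sorted cells of the main olfactory epithelium (MOE) of mice, in 4 libraries. The labels give the strain as C57BL/6, eggs of C57BL/6J mice were injected, and the study's reporting form puts its mouse lines on a mix of C57BL/6J and 129. In the first line, here the GFP line (genotype TAAR enhancer 1-GFP transgenic), GFP stands behind TAAR enhancer 1 and the Hsp68 minimal promoter, and GFP-positive and GFP-negative cells were sorted. In the second, here the tdTomato line (genotype TAAR enhancer 2-tdTomato transgenic), tdTomato stands behind TAAR enhancer 2 and the same promoter, and tdTomato-positive and tdTomato-negative cells were sorted. Each transgenic line descends from 1 founder, and mice of both sexes were sorted together by genotype. The labels call all mice adult, while the study's reporting form gives 14 days postnatal for the GFP line and 14 to 21 days for the tdTomato line. Enhancer, reporter, founder, and sort differ together between the lines, and age may differ with them, so they cannot be told apart. Each group has 1 library, and no difference given here has a replicate check or a p-value.

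The proteins of this list are secreted onto, or carried into, the mucus that covers airway and olfactory epithelium. Secretoglobins are small secreted proteins that bind hydrophobic ligands, lysozymes cut bacterial cell walls, lactoferrin binds iron, and the polymeric immunoglobulin receptor carries immunoglobulin A from the tissue to the surface. In the olfactory mucosa such proteins are made by Bowman's glands and by secretory cells of the surface.

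The 150 bases upstream of the annotated start are shown for 5 genes, 4 that were higher in the positive cells of both lines and *Scgb1c1*, which parted from them in the tdTomato line. The sequences are from RefSeq on GRCm38.p6, where 7 of the 9 genes had an entry, and are written 5′ to 3′ on the strand of the gene. For 3 genes the RefSeq start lies downstream of the first base of the GENCODE gene, so that the window lies inside that gene with all of its 150 bases for *Wfdc2*, with its last 18 for *Scgb1c1*, and with its last 21 for *Ltf*. Capitals mark matches on either strand to TATAAA (the TATA box) or AGGAAG (an ETS core, whose reverse is CTTCCT).
Reg3g, chr6:78468875-78469024, minus strand: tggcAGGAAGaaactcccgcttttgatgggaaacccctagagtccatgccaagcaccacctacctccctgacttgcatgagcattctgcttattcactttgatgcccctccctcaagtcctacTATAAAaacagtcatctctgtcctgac
Scgb3a1, chr11:49663445-49663594, plus strand: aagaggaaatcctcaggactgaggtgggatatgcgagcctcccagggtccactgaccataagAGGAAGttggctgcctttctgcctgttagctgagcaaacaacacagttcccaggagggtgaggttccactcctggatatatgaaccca
Wfdc2, chr2:164562565-164562714, plus strand: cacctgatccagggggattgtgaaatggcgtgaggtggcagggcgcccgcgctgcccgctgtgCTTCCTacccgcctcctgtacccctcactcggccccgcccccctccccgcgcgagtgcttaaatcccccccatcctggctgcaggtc
Pigr, chr1:130826534-130826683, plus strand: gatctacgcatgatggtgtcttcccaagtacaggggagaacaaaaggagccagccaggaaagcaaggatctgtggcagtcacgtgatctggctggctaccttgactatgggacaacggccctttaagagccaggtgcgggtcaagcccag
Scgb1c1, chr7:140845415-140845564, plus strand: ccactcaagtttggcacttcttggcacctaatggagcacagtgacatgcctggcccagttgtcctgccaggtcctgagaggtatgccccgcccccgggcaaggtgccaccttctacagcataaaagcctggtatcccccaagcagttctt
An AGGAAG match lay in the windows of 5 of the 7 genes with an entry (*Reg3g*, *Scgb3a1*, *Wfdc2*, *Ltf*, and *Lyz1*) and in 19.7% of 32851 windows of 150 bases upstream of annotated starts. TATAAA was found in the *Reg3g* window, from 27 to 22 bases before the start, and in 7.57% of all windows. The other motifs searched, TTCNNNGAA (STAT), GGANTTTCC (NF-kB), and TGTTTA (FOX), had a match in 0 of the 7 windows and in 4.09%, 0.688%, and 6.93% of all windows, respectively. These are letter matches in a short window and say nothing of binding. The windows of *Pigr* and *Scgb1c1* held none of the 5 motifs, although the genes differed in direction in the tdTomato line.

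Since each library is scaled to the same sum, its depth is unknown and no detection limit or counting interval could be given. There were 15096 to 16840 genes above 0 per library, and the share of the 10 highest genes was 31.5% in the GFP-positive library and 5.72% to 9.44% in the other 3. The 12 markers of mature olfactory sensory neurons (OSNs) were above 0 in every library, and their summed TPM was 29746 in GFP-negative, 3391 in GFP-positive, 30621 in tdTomato-negative, and 13927 in tdTomato-positive cells. Of 84 ribosomal protein and housekeeping genes, 3 to 6 per library were listed at 0, among them *Rpl26* in all 4, so a value of 0 is reported only as listed. In sorted bulk cells, fewer cells of a type and less RNA per cell cannot be told apart.

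In the GFP line, the secreted defence genes were far higher in GFP-positive cells. All 8 genes with a value were higher there, against 28.5% of the 17963 genes above 0 in either library. Of the 8, 7 were at least 4-fold higher on the log2(TPM + 1) scale (*Scgb3a1* from a value listed at 0), against 6.63% of all these genes. None of the 8 was at least 4-fold lower, against 15% of all these genes. The median log2 difference of the 8 was 5.40, and that of all genes was -0.74. Over genes above 0 in both libraries the medians were 5.33 (7 genes) and -0.81. In the tdTomato line the picture was mixed. At least 4-fold higher values in tdTomato-positive cells were found for 6 of the 8 (*Dmbt1* from a value listed at 0), against 7.72% of 16752 genes. *Scgb1c1* was at least 4-fold lower, as were 10.7% of all genes, and *Ltf* was 0.577 times its level in tdTomato-negative cells. With a pseudocount of 10, 4 of the 8 were at least 4-fold higher. The median log2 difference was 2.50 for the 8 and -0.19 for all genes, or 2.28 (7 genes) and -0.18 over genes above 0 in both libraries. Among the 16298 genes with a value in each line, 3.48% passed the 4-fold mark upward in both lines, and 6 of the 8 were among them (*Scgb3a1*, *Pigr*, *Dmbt1*, *Lyz1*, *Reg3g*, and *Wfdc2*). Counts over all genes moved with the scaling. With TPM as deposited, 1191 genes were at least 4-fold higher and 2699 lower in GFP-positive cells, with a median-ratio scaling 1833 and 1543, and with libraries scaled to mature OSN markers 8075 and 656. The corresponding pairs in the tdTomato line were 1293 and 1798, 1356 and 1577, and 2180 and 1082.

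**Figure D1:**
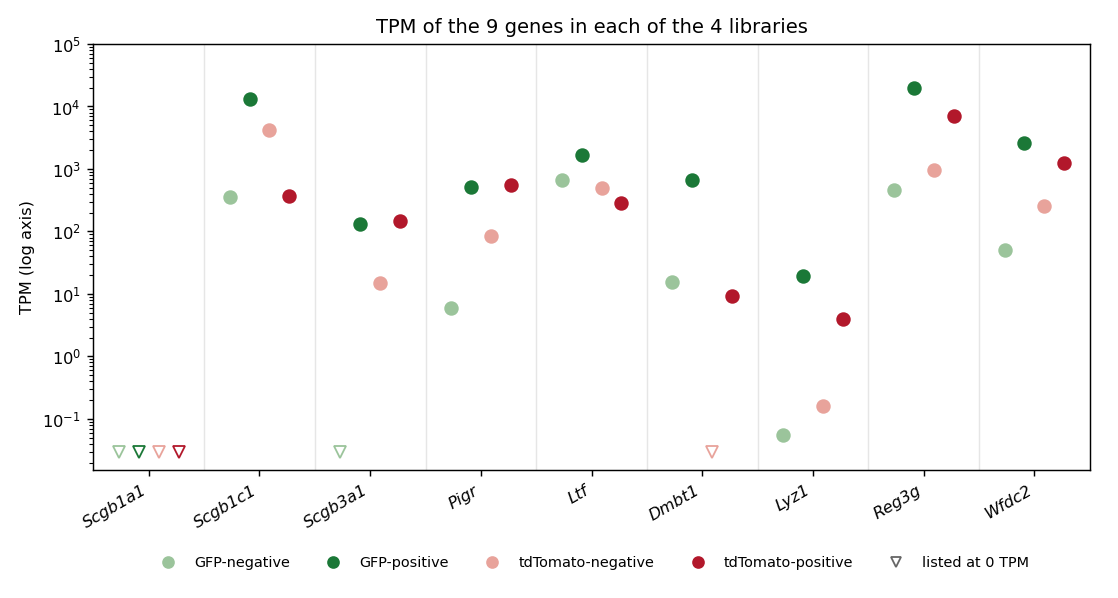
TPM on a log axis (vertical) for each of the 9 genes (horizontal), with 1 point per library, coloured by group, and open triangles at the lower edge for values listed at 0. *Scgb1a1* is listed at 0 in all 4 libraries, *Reg3g* spans 453.7 to 20056 TPM, and *Scgb1c1* is high in GFP-positive and tdTomato-negative cells.

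Taken as a sum, the 9 genes made up 0.154% of all TPM in the GFP-negative library and 3.90% in the GFP-positive one. The shares were 0.598% in tdTomato-negative and 0.975% in tdTomato-positive cells. The summed TPM was 25.3 times higher in GFP-positive than in GFP-negative cells (39038 against 1545), and 1.63 times higher in tdTomato-positive than in tdTomato-negative cells (9748 against 5976). Without *Scgb1c1* the ratio was 21.6 in the GFP line and 5.12 in the tdTomato line. The leading gene of the sum was *Ltf* in GFP-negative cells (43.1%), *Scgb1c1* in tdTomato-negative cells (69.4%), and *Reg3g* in GFP-positive (51.4%) and tdTomato-positive cells (73%).

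**Figure D2:**
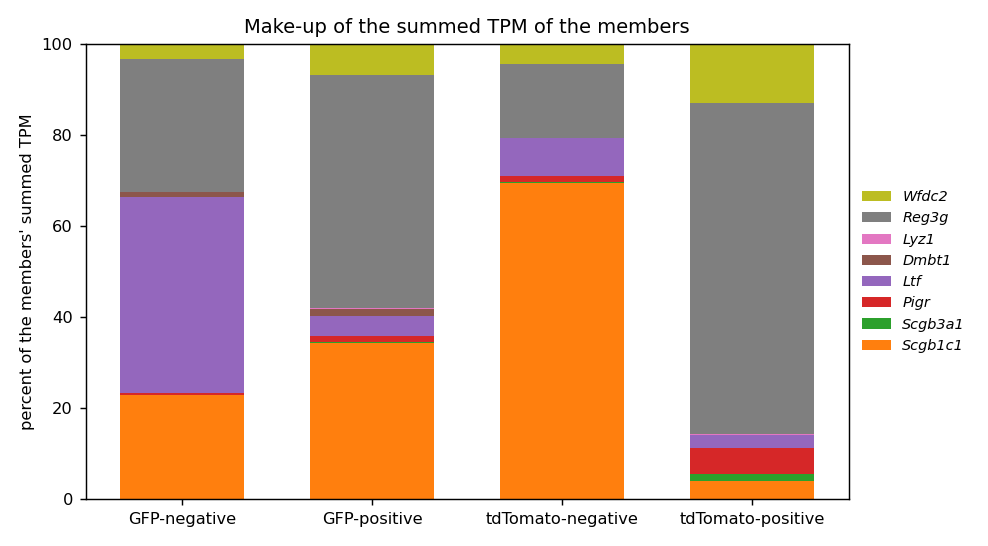
Stacked bars give the percent of the members' summed TPM (vertical, from 0 to 100) that each gene held in each library (horizontal). *Ltf* leads in GFP-negative cells with 43.1%, *Scgb1c1* in tdTomato-negative cells with 69.4%, and *Reg3g* in both reporter-positive libraries.

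The 3 secretoglobins of the list had 3 different patterns. *Scgb1c1*, a secretoglobin of the olfactory mucosa, was at 354 TPM in GFP-negative, 13348 in GFP-positive, 4145 in tdTomato-negative, and 375.7 in tdTomato-positive cells. The 2 high libraries were therefore the positive one of the first line and the negative one of the second, and in each of these it was the 10th highest gene. It was 37.7 times higher in GFP-positive than in GFP-negative cells and 11.0 times lower in tdTomato-positive than in tdTomato-negative cells, with log2 differences of 5.23 and -3.46. Of the 16298 genes with a value in each line, 0.411% were at least 4-fold higher in the first and at least 4-fold lower in the second, and *Scgb1c1* was the 1 gene of the list among them. Its direction in each line was the same with all 3 other scalings of the libraries, but these could not have changed it. Each of them raises the positive library of a line against the negative one, by at most 1.05 on the log2 scale in the tdTomato line. *Scgb1c1* lies on chromosome 7 (GRCm38, 140845547 to 140846769, plus strand), and none of the 406 windows of 50 bases in its transcripts occurs in a transcript of another gene.

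*Scgb3a1*, a secretoglobin of airway secretory cells, was listed at 0 in GFP-negative cells and had 132.5 TPM in GFP-positive, 14.7 in tdTomato-negative, and 148.6 in tdTomato-positive cells. The ratio of tdTomato-positive to GFP-positive cells was 1.12 with TPM as deposited and 0.252 to 0.826 with the other scalings, so that their order depended on the scaling, and both negative libraries were lower. In the tdTomato line the difference was 10.1-fold, or 3.25 on the log2(TPM + 1) scale. *Scgb1a1*, which encodes the club cell secretory protein of the lower airways, was listed at 0 in all 4 libraries. *Scgb1a1* is on chromosome 19 (9083636 to 9087958, minus strand) and *Scgb3a1* on chromosome 11 (49663610 to 49665118, plus strand).

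*Reg3g*, a secreted C-type lectin that binds bacterial peptidoglycan, was the most abundant of the genes in both reporter-positive libraries. It was at 453.7 TPM in GFP-negative, 20056 in GFP-positive, 978.8 in tdTomato-negative, and 7113 in tdTomato-positive cells. By rank it was the 8th highest gene of GFP-positive cells and the 2nd highest of tdTomato-positive cells, against 286th and 92nd in the negative libraries. The ratio of positive to negative was 44.2 in the GFP line and 7.27 in the tdTomato line (log2 differences 5.46 and 2.86). *Reg3g* lies on chromosome 6, from 78466269 to 78468872 on the minus strand.

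*Wfdc2*, a small protein with whey acidic protein domains that secretory epithelia release, had the same order of libraries. Its values were 50.3 TPM in GFP-negative, 2624 in GFP-positive, 258.2 in tdTomato-negative, and 1255 in tdTomato-positive cells. It was 52.2 times higher in GFP-positive and 4.86 times higher in tdTomato-positive cells than in the matching negative cells. For both *Reg3g* and *Wfdc2* the 2 reporter-positive libraries lay above the 2 negative ones, and the GFP-positive library was highest. *Wfdc2* is on chromosome 2 (164562413 to 164568510, plus strand).

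*Pigr*, the receptor that carries immunoglobulin A across epithelium, was at 5.96 TPM in GFP-negative, 512.2 in GFP-positive, 83.1 in tdTomato-negative, and 556.3 in tdTomato-positive cells. The ratio was 85.9 in the GFP line and 6.70 in the tdTomato line. The ratio of tdTomato-positive to GFP-positive cells was 1.09 with TPM as deposited, 0.637 with the median-ratio scaling, 0.801 without the highest genes, and 0.245 with libraries scaled to mature OSN markers, so that the order of the positive libraries depended on the scaling. The tdTomato-negative cells had 13.9 times the level of GFP-negative cells (12.5 to 14.0 times with the other scalings). The smaller ratio in the tdTomato line thus went with a higher value in its negative library. *Pigr* is on chromosome 1, from 130826684 to 130852249 on the plus strand.

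*Dmbt1*, a large scavenger receptor cysteine-rich protein of mucus that binds bacteria, was high in the GFP-positive library alone. It was at 15.3 TPM in GFP-negative, 654.6 in GFP-positive, 0 as listed in tdTomato-negative, and 9.44 in tdTomato-positive cells. The GFP-positive value was 69.4 times the tdTomato-positive one, and more than that with the other scalings. In the GFP line the ratio was 42.7 (log2 difference 5.33). The tdTomato line gave no ratio, since the negative value is listed at 0, and whether the gene passed the 4-fold mark there depended on the pseudocount, with log2 differences of 3.38 at 1 and 0.96 at 10. *Dmbt1* is on chromosome 7 (131032053 to 131121630, plus strand).

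**Figure D3:**
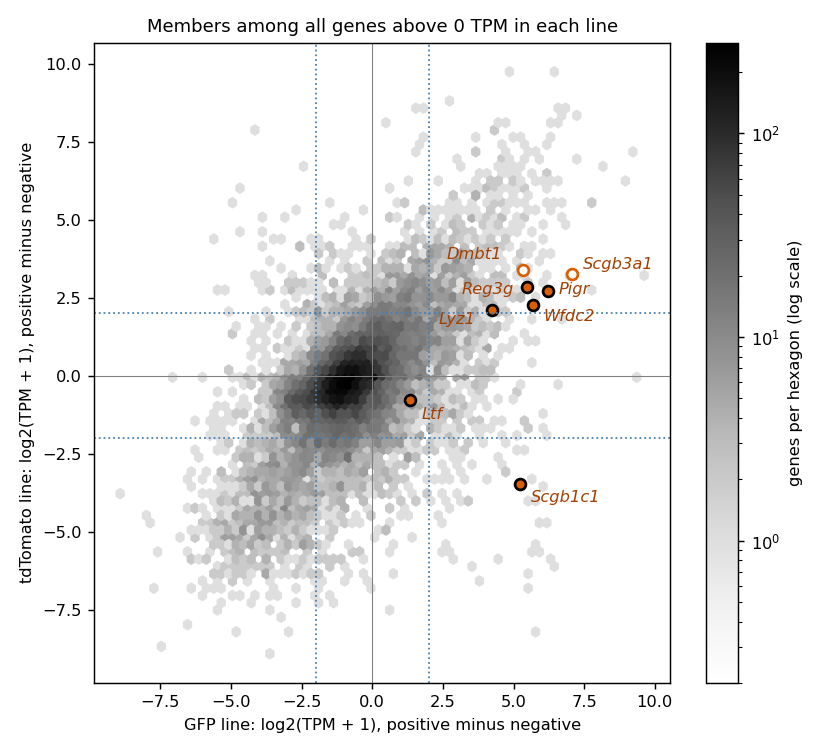
Each gene above 0 TPM in each line is placed by its log2(TPM + 1) difference, positive minus negative, in the GFP line (horizontal) and the tdTomato line (vertical). Grey hexagons count genes, dotted lines mark 4-fold, orange points are members, and open points (*Scgb3a1* and *Dmbt1*) rest on a value listed at 0. The upper right field holds 6 members, *Scgb1c1* lies in the lower right at 5.23 and -3.46, and *Ltf* lies inside the lines, lower in tdTomato-positive cells except with libraries scaled to mature OSN markers.

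*Ltf*, which encodes lactoferrin, differed least between the libraries. It was at 665.3 TPM in GFP-negative, 1691 in GFP-positive, 496 in tdTomato-negative, and 286.2 in tdTomato-positive cells. The log2 difference was 1.34 in the GFP line and -0.79 in the tdTomato line, and the latter became 0.26 with libraries scaled to mature OSN markers. Lactoferrin is made both by glands and by neutrophils, where it is stored in granules. All 9 neutrophil markers were at least 4-fold lower in GFP-positive cells, against 15% of all genes. Of the 8 with a value in the tdTomato line, 7 were at least 4-fold lower in tdTomato-positive cells, against 10.7% of all genes. The summed TPM of the 9 markers was 9367 in GFP-negative, 66.5 in GFP-positive, 1997 in tdTomato-negative, and 3.72 in tdTomato-positive cells. *Elane* was listed at 0 in all libraries but GFP-negative, *Mpo* in GFP-positive cells, and *Cxcr2*, *Mmp8*, and *Retnlg* in tdTomato-positive cells. The ratio of *Ltf* to that sum was 0.071 in GFP-negative, 25.4 in GFP-positive, 0.248 in tdTomato-negative, and 77 in tdTomato-positive cells, the last resting on a small sum. In the reporter-positive libraries *Ltf* was therefore measured where neutrophil genes were low, and in the negative libraries beside them. The part of neutrophil RNA in the negative values was not tested. *Ltf* lies on chromosome 9, from 111019271 to 111042767 on the plus strand.

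*Lyz1*, a lysozyme best known from Paneth cells of the gut, was the lowest of the 8 in both reporter-positive libraries. It was at 0.056 TPM in GFP-negative, 19.1 in GFP-positive, 0.162 in tdTomato-negative, and 4.02 in tdTomato-positive cells. The log2 differences were 4.25 and 2.11, and with a pseudocount of 10 they were 1.53 and 0.46. Its neighbour *Lyz2*, the lysozyme of macrophages and other myeloid cells, lies 5475 bases away on chromosome 10 and was at 1581, 2043, 706.7, and 1707 TPM in the same order of libraries. The 6 macrophage markers summed to 853.4, 74.7, 231, and 73.2 TPM, and their part in the *Lyz2* values was not tested. *Lyz1* was at most 0.935% of *Lyz2*, in GFP-positive cells. Of the 1214 windows of 50 bases in *Lyz1* transcripts, 195 also occur in *Lyz2* transcripts. How reads from these were divided between the 2 genes is not given in the sources used here, and its part in the *Lyz1* values was not tested. Of the other 8 genes only *Pigr* shared any such window with another gene, 18 of its 3928.

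The 8 genes fell into like and unlike profiles. Likeness was measured as the Euclidean distance between log2(TPM + 1) values over the 4 libraries, each gene centred on its own mean. The pseudocount compresses low values, so the distance depends in part on level. Among the 8, *Scgb3a1* and *Pigr* were nearest to each other (0.74), followed by *Reg3g* and *Wfdc2* (0.94), while *Scgb3a1* and *Dmbt1* were farthest apart (7.18). Each gene was then set against the 13009 others with at least 10 TPM in any library. The nearest to *Pigr* was *Bpifa1* (0.22), an abundant secreted protein of nasal epithelium, which was at 640.7, 43136, 6643, and 53377 TPM in GFP-negative, GFP-positive, tdTomato-negative, and tdTomato-positive cells. *Pigr* was between 0.93% and 1.25% of *Bpifa1* in every library, which restates that *Bpifa1* was picked as its nearest profile. The gene nearest to *Scgb3a1* was *Pigr*, and that nearest to *Dmbt1* was *Bpifb9b* (0.79), at 1304, 55039, 149.6, and 1354 TPM. For *Wfdc2* it was *Gabrp* (0.23), for *Reg3g* the epithelial keratin gene *Krt19* (0.58), and for *Lyz1* it was *Chmp4c* (0.25). *Scgb1c1* was nearest to *Tff1* (0.60), a trefoil peptide gene of mucous cells that was listed at 0 in GFP-negative and tdTomato-positive cells and had 53.9 TPM in GFP-positive and 8.74 in tdTomato-negative cells. *Ltf* was nearest to *Pdia5* (0.25), a protein disulfide isomerase of the endoplasmic reticulum. These likenesses rest on 4 libraries each and are descriptions.

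Relatives of the genes were examined by family. The table holds 25 secretoglobin genes, of which 19 were listed at 0 in all libraries. In the tdTomato line, 0 of the 2 beyond the list with a value were at least 4-fold higher and 2 at least 4-fold lower (7.72% and 10.7% of all genes). Of the 4 with a value in the GFP line, 0 passed the 4-fold mark downward and 2 upward (15% and 6.63% of all genes), namely *Scgb1b27* and *Scgb2b27*, which encode subunits of androgen-binding protein. *Scgb1b27* was at 48.2 TPM in GFP-negative, 789.5 in GFP-positive, 8.87 in tdTomato-negative, and 0 as listed in tdTomato-positive cells. *Scgb2b27* was at 13.5, 367.5, 8.18, and 0 TPM in the same order. Both thus had *Scgb1c1*'s direction in each line, higher in GFP-positive and lower in tdTomato-positive cells, with lower values in tdTomato-negative cells than in GFP-negative ones, which *Scgb1c1* did not show.

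Of the 10 whey acidic protein genes beyond *Wfdc2* with a value in the GFP line, 4 were at least 4-fold higher and 3 at least 4-fold lower in GFP-positive cells, and of the 7 in the tdTomato line 0 were higher and 3 lower. Over all genes 6.63% were higher and 15% lower in the GFP line, and 7.72% and 10.7% in the tdTomato line, so that counts this small, 0 of 7 among them, tell little of a family. *Wfdc18*, a secreted proteinase inhibitor, was at 170.4 TPM in GFP-negative, 11186 in GFP-positive, 549.8 in tdTomato-negative, and 169.6 in tdTomato-positive cells. It was 65.6 times higher in GFP-positive cells and 3.24 times lower in tdTomato-positive cells than in the matching negative cells. *Slpi*, an inhibitor of leukocyte proteases, was lower in the positive cells of both lines, at 22.6, 3.33, 103.4, and 2.63 TPM, except that its log2 difference in the GFP line became 0.26 with libraries scaled to mature OSN markers. In the Reg family, 4 of the 7 genes were listed at 0 throughout, and *Reg3d* had 3.18 TPM in GFP-positive and 11.3 in tdTomato-positive cells and was listed at 0 in both negative libraries.

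**Figure D4:**
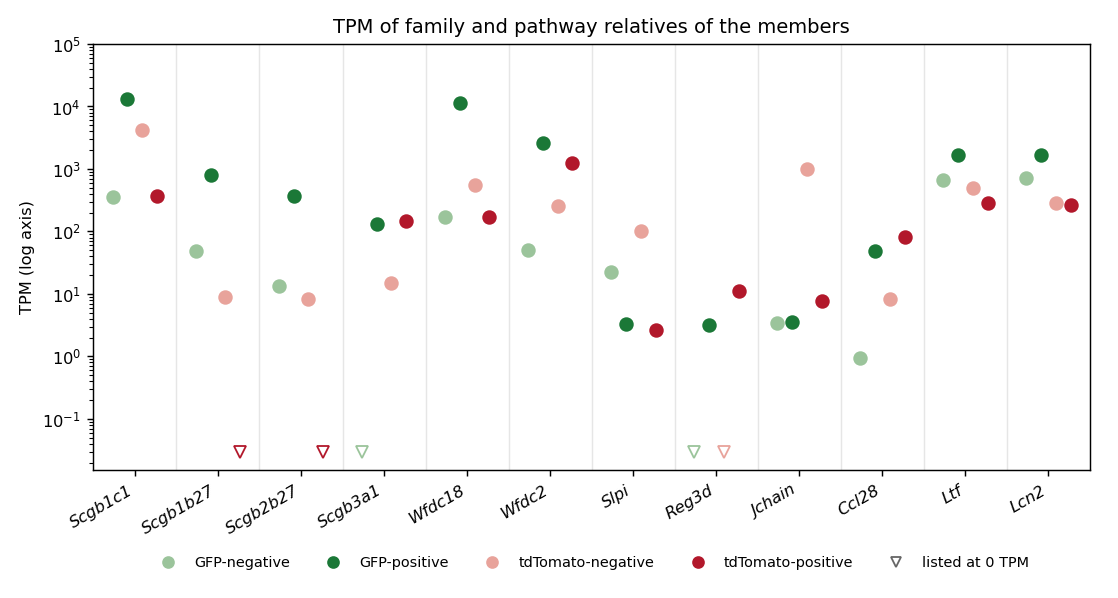
TPM on a log axis (vertical) of 12 family and pathway genes (horizontal), with 1 point per library, coloured by group, and open triangles for values listed at 0. *Scgb1b27*, *Scgb2b27*, and *Wfdc18* are highest in GFP-positive cells, as is *Scgb1c1*, and *Jchain* is high in tdTomato-negative cells alone, at 981.3 TPM.

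Along the immunoglobulin A pathway, the epithelial genes and the plasma cell gene differed. *Ccl28*, a mucosal chemokine that draws plasma cells making immunoglobulin A, was at 0.947 TPM in GFP-negative, 48.1 in GFP-positive, 8.35 in tdTomato-negative, and 81.0 in tdTomato-positive cells, the order of *Pigr* in TPM as deposited. *Jchain*, the chain that joins immunoglobulin A units and is made in plasma cells, was at 3.47, 3.55, 981.3, and 7.76 TPM. It was therefore high in 1 negative library, and its log2 difference in the GFP line was 0.03 with TPM as deposited and 0.44 to 2.53 with the other scalings. The 4 plasma and B cell markers with a value, of which *Jchain* is 1, summed to 491.8, 13.2, 1148, and 34.6 TPM. Without *Jchain* the other 3 summed to 488.3, 9.64, 166.3, and 26.8 TPM, so that GFP-negative cells were highest. In the group of iron-binding and peroxidase genes, 0 of the 5 besides *Ltf* were at least 4-fold different in either direction in the GFP line, and 0 of 3 in the tdTomato line. Over all genes 6.63% were at least 4-fold higher and 15% lower in the GFP line, and 7.72% and 10.7% in the tdTomato line. The counts are too small to set apart from these shares. *Lcn2*, which binds bacterial iron carriers and like *Ltf* is made by both epithelium and neutrophils, was at 720.4 TPM in GFP-negative, 1697 in GFP-positive, 290.5 in tdTomato-negative, and 265.2 in tdTomato-positive cells. Its log2 differences were 1.23 and -0.13, and the latter changed sign with 2 of the 3 other scalings. *Trf*, which encodes transferrin, was at 64.3, 93.4, 51.1, and 95.3 TPM.

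The other scavenger receptor cysteine-rich genes were low in the GFP line. Of the 5 others with a value in the GFP line, 0 were at least 4-fold higher and 1 was at least 4-fold lower in GFP-positive cells, near the 6.63% and 15% of all genes, and none of the 5 reached 10 TPM in that line. In the tdTomato line, 0 of the 2 others with a value were at least 4-fold higher or lower (7.72% and 10.7% of all genes). *Ssc5d* was at 4.72 TPM in tdTomato-negative and 13.6 in tdTomato-positive cells, where *Dmbt1* had 9.44. Of the 51 other antimicrobial genes, which included the beta-defensins, 39 were listed at 0 in all libraries. Of the 10 with a value in the GFP line, 4 were at least 4-fold higher and 4 at least 4-fold lower (6.63% and 15% of all genes), and of the 11 in the tdTomato line 2 were higher and 4 lower (7.72% and 10.7% of all genes). The lower ones included the neutrophil genes *S100a8* and *S100a9*, which were at 2347 and 3215 TPM in the GFP-negative library and at 12.0 and 33.8 in the GFP-positive library. In the tdTomato line they were at 687.1 and 996.6 TPM in negative cells and at 0.754 and 2.59 in positive cells. *Pglyrp1*, a peptidoglycan recognition protein, was at 148 TPM in GFP-negative, 972.6 in GFP-positive, 113.2 in tdTomato-negative, and 370.8 in tdTomato-positive cells.

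Marker genes of secretory and supporting cells were mostly higher in GFP-positive cells and of both directions in tdTomato-positive cells. The summed TPM of the 7 Bowman's gland markers was 1723 in GFP-negative, 68956 in GFP-positive, 245.9 in tdTomato-negative, and 2060 in tdTomato-positive cells. Among all genes, 6.63% in the GFP line and 7.72% in the tdTomato line were at least 4-fold higher in positive cells, and the counts of each marker list stand beside these shares. In the GFP line 6 of the 7 gland markers were at least 4-fold higher in positive cells, and in the tdTomato line 5 of the 7 were, while *Muc2* and *Sox10* were lower there (log2 differences -1.48 and -1.17). Most of the sums came from *Bpifb9a* and *Bpifb9b* (13474 and 55039 TPM in the GFP-positive library). The 8 goblet and club cell markers summed to 195.8, 5491, 664.4, and 4051 TPM in the same order, and most of each sum was *Cyp2f2*, a cytochrome P450, at 161.6, 3653, 466.5, and 3094 TPM. *Scgb1a1*, which encodes the club cell secretory protein, is not among these markers and was listed at 0 in all libraries. Of those with a value, 6 of 7 were at least 4-fold higher in the GFP line and 4 of 6 in the tdTomato line, where *Muc5ac* was lower (-1.54), and *Tff3* was listed at 0 in all libraries. *Muc5b*, a gel-forming mucin, stands in both of these lists. The 7 sustentacular cell markers summed to 1018, 7275, 1615, and 6618 TPM, with 5 of 7 at least 4-fold higher in the GFP line and 2 of 7 in the tdTomato line. Those 2, *Cyp2a5* (3572 TPM) and *Sec14l3* (2619 TPM), held most of the tdTomato-positive sum, *Cyp2g1* and *Cyp1a2* were lower there (-1.54 and -1.67), and the median log2 difference of the 7 in that line was 0.06. Multiciliated cell markers summed to 660.9, 2547, 625.9, and 8149 TPM, and 3 of 7 and 7 of 7 were at least 4-fold higher. The part of these cell types in the values of the secreted defence genes was not tested.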

How the data were processed

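RNA-seq of FACS-sorted MOE cells was analysed in 4 libraries, 1 per group. The authors deposited TPM values of 24421 genes named by symbol, on mm10, with 1 column per library. The submitters' processing notes name Trimmomatic 0.36 and Salmon 1.4.0, while the study's methods name Hisat2 2.1.0, Cufflinks 2.2.1, and featureCounts of Subread 1.6.2. Which of them gave these values, the annotation, and any filter are not given in the sources used here. The labels and the methods also name different RNA and library kits. TPM is a share of each library, so a few abundant genes lower all others.

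Differences are log2(TPM + 1), positive minus negative, within a line, a scale that understates low genes. Genes above 0 in either library of a line were counted, with 4-fold as the mark. Ratios are of TPM and are given only where both values are above 0. No test was made, since each group has 1 library. The genes, family lists, markers, and motifs were chosen with earlier results of these data known. Named relatives are the 3 highest of a list with at least 10 TPM in any library. Other genes are named as the nearest profile, or were chosen after their values were seen (*Elane*, *Mpo*, *Cxcr2*, *Mmp8*, *Retnlg*, *Tff3*, *Muc5ac*, *Muc5b*, *Muc2*, *Sox10*, *Cyp2g1*, *Cyp1a2*, and *Rpl26*).

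Alternatives were pseudocounts of 0.1 and 10, a minimum of 10 TPM, a 2-fold mark, a median-ratio scaling over 11943 genes, a rescaling without the 24 highest genes, and a scaling to 12 mature OSN markers. Applying these scalings to ratios between the lines was added after seeing the data. Gene positions and transcript windows are from GENCODE M21 (GRCm38). Scripts were tested on simulated data. Python 3.11.15, NumPy 2.4.6, pandas 2.3.3, and matplotlib 3.10.9 were used.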

Additional observations from a re-analysis of the deposited data

Results flagged for a closer look

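The directions in the 2 lines were opposite for the genes below. No test of these opposite directions could be made from single libraries. Over all genes with a value in each line 29.3% had opposite directions, and 7.58% were higher in GFP-positive and lower in tdTomato-positive cells. The latter was the sense of all genes below but *Ssc5d*, with TPM as deposited. The difference of the log2 differences, tdTomato line minus GFP line, was -8.69 for *Scgb1c1* (5.23 in the GFP line and -3.46 in the tdTomato line), -7.87 for *Scgb2b27* (4.67 and -3.20), -7.31 for *Scgb1b27* (4.01 and -3.30), and -7.72 for *Wfdc18* (6.03 and -1.69). It was -2.14 for *Ltf* (1.34, -0.79) and -1.37 for *Lcn2* (1.23, -0.13), neither opposite with mature OSN scaling, nor *Lcn2* with median-ratio scaling. It was -6.84 for *Jchain*, whose value in the GFP line was near 0 as deposited (0.03 against -6.81) and up to 2.53 with the other scalings, and 1.76 for the scavenger receptor gene *Ssc5d* (-0.40 and 1.36), which was not opposite with 2 of the 3 other scalings. *Scgb2b27* and *Scgb1b27* are listed at 0 in tdTomato-positive cells, so their values depend on the pseudocount.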

How the results depend on the processing

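Each difference is one between the 2 libraries of a line, and a fit over both lines with line and sort as terms was not made. A log2 value was called moved when it differed by more than 0.58 (1.5-fold). Among the 8 genes, the numbers at least 4-fold higher or lower stayed within 1.5 times their values under the alternatives run, the widest being 4 in place of 6 higher in the tdTomato line with a pseudocount of 10. The median log2 difference of the 8 genes in the GFP line was 6.27 with the median-ratio scaling and 8.40 with the scaling to mature OSN markers. In the tdTomato line it was 1.598 with a pseudocount of 10 and 3.33 with the scaling to mature OSN markers. These scalings shifted the median of all genes, by 0.74 and 2.61 in the GFP line and by 0.13 and 0.88 in the tdTomato line, while rescaling after removal of the 24 highest genes moved it by 0.43 and 0.05. Of 96 values of single genes under the alternatives, 63 moved less than 1.5-fold, 32 moved with the same direction, and 1 reversed, *Ltf* in the tdTomato line at 0.26 with the scaling to mature OSN markers. Of the 63, 16 are from the minimum of 10 TPM, which all 8 genes pass and which could not change a log2 value. *Dmbt1* in the tdTomato line was 6.58 with a pseudocount of 0.1 and 0.96 with 10. The depth is unknown, so the precision of low values and of those listed at 0 could not be given.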

Other observations

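Genes of mucous cells gave values beside the secreted defence genes. *Tff2*, a trefoil peptide of mucus, was listed at 0 in GFP-negative cells and had 787 TPM in GFP-positive, 67.7 in tdTomato-negative, and 645.4 in tdTomato-positive cells. *Agr2*, which helps to fold mucins, was at 22.9, 751.1, 81.2, and 184.7 TPM in the same order. *Muc5ac*, a gel-forming mucin of goblet cells, was at 6.70, 144.9, 32.9, and 10.7 TPM, so like *Scgb1c1* it was higher in GFP-positive and lower in tdTomato-positive cells. *Muc5b*, a gel-forming mucin of glands, was at 1.96, 106, 14.2, and 104.7 TPM, with a ratio of tdTomato-positive to GFP-positive cells of 0.988 as deposited and 0.223 to 0.728 with the other scalings. *Muc5ac* and *Muc5b* were chosen here after their values were seen. The 5 horizontal basal cell markers summed to 63, 629.2, 151.6, and 29.1 TPM, with 4 at least 4-fold higher in the GFP line (6.63% of all genes) and 3 at least 4-fold lower in the tdTomato line (10.7% of all genes).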
